A study of Mus musculus with 16 samples.

Results

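The genes described here are 10 members of the SOX family of transcription factors, grouped under the label of SOX genes outside the oligodendrocyte lineage: Sox1, Sox2 and Sox3 (subfamily SOXB1), Sox21 (SOXB2), Sox4 and Sox11 (SOXC), Sox13 (SOXD), Sox8 and Sox9 (SOXE) and Sox18 (SOXF). The label is a name only, and whether cells of that lineage express these genes was not tested. The 10 genes were chosen by name, with earlier results of these data known. They were found through the mouse Entrez identifiers in the count tables, and make up 10 of the 27179 genes listed. All 10 were among the 15177 genes that passed a filter on low counts, but Sox18 passed it through 1 group alone, the null differentiating cells, so its difference there is in part a condition of its being tested. RNA of mouse neural stem and progenitor cells (NSPCs) was sequenced to ask what loss of the histone acetyltransferase KAT7, also called HBO1, does to mRNA levels. Cortical and ganglionic eminence tissue of E14.5 foetuses had been dissociated and cultured as neurospheres. Null cells were Kat7 lox/lox Nes-Cre T/+ and intact cells Kat7 +/+ Nes-Cre T/+, so cells of both genotypes carried a Cre transgene under Nestin (Nes) control, which is active in neural progenitors. Each genotype was sampled proliferating, after 3 passages and 3 days in stem cell medium, and differentiating, after 3 days on laminin in cortical neuron medium, with 4 libraries in each of the 4 groups. Whether equal replicate numbers stand for the same foetus could not be learned from the labels. The p-values set differences between groups against the spread between libraries, estimated over all 4 groups together. A library that stands apart can therefore move the p-values of comparisons that do not include its group.

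SOX proteins bind DNA through an HMG box, bend it, and usually act with a partner factor such as a POU or PAX protein. SOXB1 proteins keep neural progenitors undifferentiated and SOXB2 proteins oppose them. SOXC proteins act in cells that leave the progenitor state to become neurons, SOXE proteins act in glial specification and neural crest, SOXD proteins lack a transactivation domain of their own and modify the action of other SOX proteins, and SOXF proteins act in vascular and lymphatic endothelium.

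Promoters of 7 of the 10 genes were matched in the RefSeq table of GRCm38.p6, each 300 bases long, from 250 before to 50 after an annotated start. For Sox13, on the minus strand, this window (chr1:133424163-133424462) lies almost wholly inside the gene, which ends at 133424459. Promoters of Sox3, Sox9 and Sox18 were not matched. Of the 7, 3 are shown from 250 bases upstream to the start, because they belong to the genes of the SOXB1 and SOXC subfamilies with the clearest difference between groups (Sox1 and Sox4) and to the most abundant SOXB1 gene (Sox2). They are written 5′ to 3′ on the strand of the gene: Sox1 at chr8:12395269-12395518 on the plus strand, Sox2 at chr3:34649745-34649994 on the plus strand and Sox4 at chr13:28953700-28953949 on the minus strand. Capitals mark matches, on either strand, to the SOX core motif ACAAAG, the CCAAT box and the GC box GGGCGG.
Sox1: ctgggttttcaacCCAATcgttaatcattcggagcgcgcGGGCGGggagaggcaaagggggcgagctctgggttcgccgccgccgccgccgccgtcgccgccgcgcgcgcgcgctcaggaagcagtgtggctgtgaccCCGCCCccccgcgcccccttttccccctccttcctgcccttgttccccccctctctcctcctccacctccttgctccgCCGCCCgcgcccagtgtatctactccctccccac
Sox2: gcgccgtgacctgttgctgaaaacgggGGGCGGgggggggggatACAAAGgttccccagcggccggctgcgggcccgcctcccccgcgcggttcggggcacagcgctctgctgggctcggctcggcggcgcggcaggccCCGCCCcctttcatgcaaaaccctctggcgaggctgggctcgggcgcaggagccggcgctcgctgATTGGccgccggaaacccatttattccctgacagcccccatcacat
Sox4: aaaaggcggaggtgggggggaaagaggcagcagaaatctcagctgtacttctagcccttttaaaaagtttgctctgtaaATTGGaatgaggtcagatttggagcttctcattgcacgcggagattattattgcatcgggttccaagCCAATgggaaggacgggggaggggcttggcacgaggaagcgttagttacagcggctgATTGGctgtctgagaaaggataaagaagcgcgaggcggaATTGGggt
The Sox2 promoter held 1 ACAAAG, at position -206 from the start, and was the only one of the 7 with this motif, which 18.7% of the 32851 mouse promoters of the same length hold. None of the 7 held ACAATG (12.6% of all promoters) or the TATA box TATAAA (13.6%). CCAAT, found in 37.4% of all promoters, was present in Sox1, Sox2, Sox4 and Sox11, and 4 times in Sox4. GGGCGG, found in 35.7%, was present in Sox1, Sox2, Sox11 and Sox8. No letters of 1 motif lay within another. CpG dinucleotides numbered 12 to 40 per promoter of these genes, against a median of 7 over all promoters, and their GC content was 52.0 to 73.3%, against a median of 52.7%. The highest values, 40 and 73.3%, belong to the Sox13 window, which lies almost wholly inside the gene. A match describes the letters of this window and is not evidence of binding.

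Library totals were 16.8 to 47.9 M counts. Kat7 checked the labels: it stood at 131 to 145 CPM (counts per M of library total, scaled by TMM) in the 4 intact proliferating libraries, 100 to 107 CPM in the intact differentiating libraries and at most 0.166 CPM in each of the 8 null libraries. Levels are given in CPM within a gene, and in CPM per kilobase of gene model wherever genes are compared with each other. Fold changes are log2 values from edgeR's quasi-likelihood test, each with its standard error (SE), and a gene was called at a Benjamini-Hochberg adjusted p under 0.05 over all 15177 genes. The intact differentiating replicate 1 stands apart: its summed neuron markers reached 6050 CPM against 2220 to 3270 CPM in the other 3 libraries of its group, and its oligodendrocyte lineage markers 4310 against 7060 to 8660 CPM. It held the lowest value of its group for 6 of the 10 genes (Sox2, Sox3, Sox21, Sox13, Sox8 and Sox9) and the highest for Sox11 and Sox18, so results that rest on it are also given without it. Intact proliferating replicate 1 stands apart as well: its summed astrocyte markers were 2040 CPM against 1320 to 1460 CPM in the other 3 libraries of its group. It was highest of its group for 5 of the 10 genes (Sox2, Sox21, Sox4, Sox8 and Sox9) and lowest for the other 5. Leaving it out changed 4 calls of the 10 genes, those of Sox2, Sox1, Sox13 and Sox8, which are given with each gene. Within the null proliferating group, replicate 4 was lowest for 9 genes, all but Sox18. In bulk RNA, fewer cells of a type and less RNA per cell cannot be told apart.

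By summed level per kilobase, SOXB1 was the most abundant subfamily in proliferating cells and SOXC exceeded it in every null differentiating library. Summed over Sox1, Sox2 and Sox3, SOXB1 stood at 309 ± 10.2 CPM per kilobase in intact proliferating cells (SD, n = 4), 269 ± 40.9 in null proliferating, 304 ± 90.1 in intact differentiating and 327 ± 3.52 in null differentiating cells. Summed over Sox4 and Sox11, SOXC stood at 152 ± 17.9, 141 ± 19.1, 279 ± 30.4 and 385 ± 29.0 CPM per kilobase in the same order. The ratio of the SOXB1 sum to the SOXC sum was thus 1.71 to 2.38 in the intact proliferating libraries, 1.86 to 1.94 in the null proliferating, 0.555 to 1.52 in the intact differentiating and 0.812 to 0.947 in the null differentiating libraries. The lowest ratio, 0.555, was that of intact differentiating replicate 1. Summed over Sox8 and Sox9, SOXE stood at 122 ± 19.6, 99.9 ± 18.1, 152 ± 49.8 and 210 ± 29.1 CPM per kilobase. The null differentiating libraries (180 to 236) overlapped the intact differentiating ones (85.2 to 204) in this sum. These sums leave out Sox12, Sox5, Sox6 and Sox10, which belong to the same subfamilies and are described further on.

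**Figure D1:**
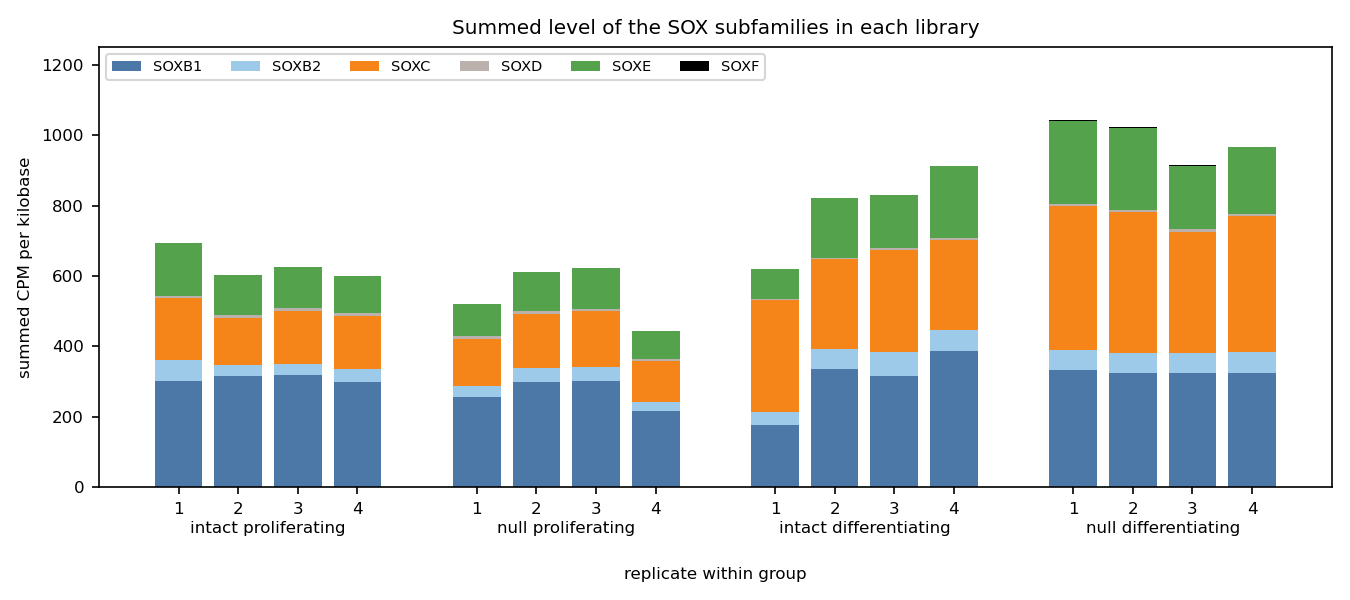
Summed level of the 10 SOX genes by subfamily in each of the 16 libraries, in CPM per kilobase of gene model on a linear axis from 0, with replicates 1 to 4 of each group side by side. SOXC rises from 152 and 141 CPM per kilobase in proliferating intact and null cells to 279 and 385 in differentiating cells, while intact differentiating replicate 1 has the lowest SOXB1 sum (176).

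Among single genes, Sox2 was the most abundant in intact proliferating cells, at 212 ± 8.43 CPM per kilobase, above Sox4 at 130 ± 20.5 with no overlap of the libraries. Sox3 (85.8 ± 8.25), Sox8 (69.6 ± 14.9), Sox9 (52.2 ± 4.88) and Sox21 (40 ± 13.2) followed, each overlapping its neighbour in this order. Sox11 (22.5 ± 3.31), Sox1 (11 ± 1.47), Sox13 (7.55 ± 1.27) and Sox18 (0.0804 ± 0.04 CPM per kilobase) closed the order without overlap. In null proliferating cells the libraries of Sox2 (148 ± 19.4) and Sox4 (113 ± 14.8) overlapped, as did those of Sox4 and Sox3 (101 ± 19.1). In intact differentiating cells Sox2 (249 ± 81.6) and Sox4 (247, range 231 to 262) overlapped, and in null differentiating cells Sox4 led at 354 ± 27.6, above Sox2 at 212 ± 17.6 with no overlap. Sox4 in null differentiating cells exceeded 99.4% of the tested genes in level per kilobase, and Sox18 in the same cells exceeded 23.1%.

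Sox1, a SOXB1 factor of the early neuroectoderm and of neural progenitors (Entrez 20664, chromosome 8, 12395519 to 12399555 in GRCm38), was higher in null than in intact cells in both conditions. In replicates 1 to 4 it stood at 36.6, 46.7, 50.7 and 44.2 CPM in intact proliferating cells and at 73.6, 86.7, 90.1 and 65.5 CPM in null proliferating cells. Differentiating cells had 60.5, 52.9, 67.2 and 45.7 CPM when intact and 101, 93.9, 95.5 and 109 CPM when null. Every null library lay above every intact library of the same condition. The log2 difference was 0.83 ± 0.13 in proliferating (SE, edgeR adjusted p = 0.00017) and 0.82 ± 0.13 in differentiating cells (edgeR adjusted p = 0.00012), and the response to differentiation did not pass the test of a difference between genotypes (-0.01, edgeR adjusted p = 0.98). The response itself was small, 0.35 ± 0.13 in intact (edgeR adjusted p = 0.025) and 0.34 ± 0.13 in null cells (edgeR adjusted p = 0.029). Both responses missed the threshold when any 1 of 4 libraries was left out (edgeR adjusted p = 0.0516 to 0.0957 without intact proliferating replicate 1 or 4 or intact differentiating replicate 1 or 3, and 0.0516 to 0.092 without null proliferating replicate 1 or 4 or null differentiating replicate 1 or 4). Sox1 overlaps the lncRNA gene Sox1ot, which moved the same way: 1.34 ± 0.445 CPM in intact and 5.53 ± 1.30 in null proliferating cells, 8.87 ± 3.48 in intact and 21.6 ± 2.80 CPM in null differentiating cells (SD, n = 4), with log2 differences between genotypes of 2.04 ± 0.30 (SE, edgeR adjusted p = 0.00011) and 1.29 ± 0.27 (edgeR adjusted p = 0.0011). Without the strand used in counting, reads of overlapping genes cannot be told apart.

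Sox2, the SOXB1 factor that marks neural stem cells and maintains them (Entrez 20674, chromosome 3, 34649995 to 34652461), was lower in proliferating cells that lacked KAT7. It stood at 538, 529, 528 and 491 CPM in the intact and at 359, 391, 405 and 298 CPM in the null proliferating libraries. No null library reached the lowest intact one. The log2 difference was -0.52 ± 0.19 (SE, edgeR adjusted p = 0.041). This call was lost with 10 of the 16 libraries left out in turn (edgeR adjusted p = 0.0508 to 0.114, log2 difference -0.56 to -0.43), namely null proliferating replicates 1, 2 and 4, each intact proliferating replicate and null differentiating replicates 1, 2 and 4. Without intact differentiating replicate 1, the log2 difference was the same and the p lower (-0.52, edgeR adjusted p = 0.000604). In differentiating cells Sox2 stood at 330, 684, 635 and 800 CPM in the intact and 486, 489, 577 and 536 CPM in the null libraries. Replicate 1 alone of the intact libraries lay below the null ones, and the other 3 lay above all 4. With all libraries the difference was not called (-0.23, edgeR adjusted p = 0.34). Without intact differentiating replicate 1, Sox2 was lower in null cells by a log2 difference of -0.44 (edgeR adjusted p = 0.00329), and it rose with differentiation in intact cells by 0.44 (edgeR adjusted p = 0.00165) in place of the uncalled 0.23. In null cells it rose by 0.52 ± 0.19 (SE, edgeR adjusted p = 0.023), a call lost without null proliferating replicate 4 (0.44, edgeR adjusted p = 0.0692) or null differentiating replicate 3 (0.47, edgeR adjusted p = 0.0585). Without intact differentiating replicate 1 this rise was 0.52 (edgeR adjusted p = 0.00022). The lncRNA gene Sox2ot spans Sox2. It stood at 51.2, 16.3, 17.6 and 18.4 CPM in intact and 54.6, 61.3, 61.7 and 28.9 CPM in null proliferating libraries, which overlapped through intact replicate 1 and null replicate 4. The log2 difference was 0.99 ± 0.34 (SE, edgeR adjusted p = 0.029), and 1.56 ± 0.24 (edgeR adjusted p = 0.000188) without intact proliferating replicate 1. The call was lost without null proliferating replicate 1, 2 or 3 or intact proliferating replicate 2, 3 or 4 (edgeR adjusted p = 0.0573 to 0.087). In differentiating cells Sox2ot averaged 75.4 ± 18.4 CPM in intact and 57.0 ± 6.18 CPM in null cells (SD, n = 4), a log2 difference of -0.40 ± 0.33 (SE, edgeR adjusted p = 0.34).

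Sox3, the X-linked SOXB1 gene, whose product acts in the hypothalamus, the pituitary and neural progenitors (Entrez 20675, chromosome X, 60891366 to 60893430), fell with differentiation in intact cells. It stood at 152, 186, 188 and 182 CPM in intact proliferating and 193, 244, 239 and 161 CPM in null proliferating libraries. Differentiating cells had 55.0, 89.9, 85.9 and 103 CPM when intact and 227, 213, 139 and 167 CPM when null. The genotypes overlapped while proliferating, and the intact differentiating libraries lay below all the others. The intact response was -1.09 ± 0.19 (SE, edgeR adjusted p = 0.00013), whereas the null response of -0.16 was not called (edgeR adjusted p = 0.45). The difference of the responses was 0.92 ± 0.27 (SE, edgeR adjusted p = 0.023), and without null differentiating replicate 1 it was 0.81 (edgeR adjusted p = 0.0509). Between genotypes, Sox3 was not called in proliferating cells (0.24, edgeR adjusted p = 0.34) and was higher in null differentiating cells by 1.16 ± 0.19 (SE, edgeR adjusted p = 0.00018).

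The 3 SOXB1 genes thus took different shares of a summed level that overlapped between genotypes in both conditions. Per kilobase, Sox2 made up 68.7 ± 2.64% of the SOXB1 sum in intact proliferating, 55.2 ± 1.59% in null proliferating, 81.3 ± 3.49% in intact differentiating and 64.9 ± 5.76% in null differentiating cells (SD, n = 4). Sox3 made up 27.7 ± 2.28, 37.5 ± 1.62, 13.5 ± 1.08 and 27.6 ± 5.85% in the same order, and Sox1 the remainder. The ratio of Sox2 to Sox3 was 2.26 to 2.98 in the intact and 1.35 to 1.57 in the null proliferating libraries. It was 5.04 to 6.56 in the intact and 1.80 to 3.49 in the null differentiating libraries, so the genotypes did not overlap in either condition, intact differentiating replicate 1 included.

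Sox21, the SOXB2 gene, whose product counteracts SOXB1 proteins in progenitors (Entrez 223227, chromosome 14, 118233233 to 118237030), was not called between genotypes. It stood at 226, 120, 123 and 139 CPM in intact and 109, 149, 145 and 100 CPM in null proliferating libraries. It stood at 148, 221, 257 and 228 CPM in intact and 216, 211, 213 and 219 CPM in null differentiating libraries. The genotypes overlapped in both conditions, with log2 differences of -0.27 (edgeR adjusted p = 0.31) and 0.01 (edgeR adjusted p = 0.98). Sox21 rose with differentiation in null cells, by 0.77 ± 0.20 (SE, edgeR adjusted p = 0.0034), with every differentiating library above every proliferating one. The rise in intact cells, 0.49 ± 0.20 (SE, edgeR adjusted p = 0.04), was lost with 6 of the 16 libraries left out in turn, namely intact proliferating and intact differentiating replicates 2, 3 and 4 (edgeR adjusted p = 0.0734 to 0.123). The replicate number taken as a block also ended it (0.49, edgeR adjusted p = 0.0668, and 0.52, edgeR adjusted p = 0.0858, with each genotype's numbers taken apart). Sox14, the other SOXB2 gene, had no counts outside the intact differentiating group, where replicates 1 to 4 had 0.372, 0.0372, 0 and 0 CPM, so it rests on replicate 1.

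Sox4, a SOXC factor of newborn neurons and of many other cells in transition (Entrez 20677, chromosome 13, 28948919 to 28953699), rose with differentiation in both genotypes and rose further in null cells. It stood at 471, 327, 370 and 374 CPM in intact and 313, 368, 373 and 282 CPM in null proliferating libraries, which overlapped. It stood at 759, 684, 778 and 714 CPM in intact and 1120, 1100, 935 and 1060 CPM in null differentiating libraries, which did not. The intact response was 0.93 ± 0.11 (SE, edgeR adjusted p = 3.7e-06) and the null response 1.65 ± 0.11 (SE, edgeR adjusted p = 1e-08). Their difference was 0.72 ± 0.16 (SE, edgeR adjusted p = 0.0047). Between genotypes, the log2 difference was -0.21 in proliferating cells (edgeR adjusted p = 0.16) and 0.52 ± 0.11 in differentiating cells (SE, edgeR adjusted p = 0.0015). A predicted lncRNA gene, Gm46405, overlaps Sox4 in the annotation, and another, Gm4675, overlaps Sox21. Neither is among the genes counted.

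Sox11, the other SOXC gene described here and a factor of neuronal differentiation (Entrez 20666, chromosome 12, 27334268 to 27342718), was not called in any of the 5 comparisons. It stood at 150, 194, 205 and 212 CPM in intact and 261, 251, 270 and 175 CPM in null proliferating libraries. It stood at 516, 198, 235 and 123 CPM in intact and 278, 249, 242 and 263 CPM in null differentiating libraries. The value of 516 belongs to replicate 1, the library with the high neuron markers, and 123 to replicate 4, whose neuron markers were the lowest of the group at 2220 CPM. Whether neuron content bears on Sox11 was not tested. The log2 difference between genotypes in differentiating cells was -0.05 (edgeR adjusted p = 0.9) with all libraries. Without intact differentiating replicate 1 it was 0.48 (edgeR adjusted p = 0.0569). The intact response was 0.50 (edgeR adjusted p = 0.16), -0.04 without replicate 1 (edgeR adjusted p = 0.872) and 0.73 without replicate 4 of the intact differentiating libraries (edgeR adjusted p = 0.0188). Sox4 made up 92.1 ± 0.415% of the sum of both SOXC genes per kilobase in null differentiating cells, and 89.1 ± 5.82% in intact differentiating cells.

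Sox12, the SOXC gene outside the 10, was lower in null cells in both conditions. It averaged 125 ± 2.17 CPM in intact and 84.3 ± 9.02 in null proliferating cells, and 211 ± 37.3 in intact and 85.5 ± 3.16 CPM in null differentiating cells (SD, n = 4). The log2 differences were -0.57 ± 0.10 (SE, edgeR adjusted p = 0.00053) and -1.31 ± 0.10 (edgeR adjusted p = 2.8e-07). The difference of its responses was -0.74 ± 0.14 (SE, edgeR adjusted p = 0.0022), where that of Sox4 was 0.72. In intact cells both genes rose with differentiation, Sox12 by 0.76 and Sox4 by 0.93.

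Sox13, a SOXD factor that modifies other SOX proteins and acts in T cell development (Entrez 20668, chromosome 1, 133382300 to 133424459), fell with differentiation in intact cells. It stood at 20.4, 29.7, 30.2 and 26.2 CPM in intact proliferating and 10.4, 15.4, 20.2 and 19.6 CPM in intact differentiating libraries. Null cells had 24.8, 25.5, 24.7 and 21.8 CPM when proliferating and 20, 23.2, 23.3 and 20.6 CPM when differentiating. The intact groups were separated by 20.4 against 20.2 CPM alone, and overlapped when scaled by library size. The intact response was -0.70 ± 0.17 (SE, edgeR adjusted p = 0.0021) and the null response -0.15 (edgeR adjusted p = 0.45). Their difference of 0.55 was not called (edgeR adjusted p = 0.12), so a difference between the genotypes in this response was not shown. In differentiating cells the log2 difference between genotypes was 0.41 (edgeR adjusted p = 0.065). It was called without intact proliferating replicate 1 (0.41, edgeR adjusted p = 0.0445) and without intact differentiating replicate 3 (0.52, edgeR adjusted p = 0.0317) or 4 (0.51, edgeR adjusted p = 0.0343), and with the replicate number as a block (0.43, edgeR adjusted p = 0.0329). The numbers taken as blocks within each genotype also brought the difference of the responses past the threshold (0.58, edgeR adjusted p = 0.0313).

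The other SOXD genes, Sox5 and Sox6, act in neuronal and glial lineages. Sox5 averaged 75.9 ± 3.24 CPM in intact and 22 ± 2.01 CPM in null proliferating cells, a log2 difference of -1.78 ± 0.10 (SE, edgeR adjusted p = 1.7e-08). In differentiating cells it averaged 64.8 ± 9.46 and 58.0 ± 3.88 CPM, a log2 difference of -0.16 (edgeR adjusted p = 0.17). Sox6 was lower in null proliferating cells by -0.55 ± 0.17 (SE, edgeR adjusted p = 0.019), with a difference of -0.17 in differentiating cells (edgeR adjusted p = 0.43). The first was not called without intact proliferating replicate 1 (-0.44, edgeR adjusted p = 0.0584), and the second was called without intact differentiating replicate 1 (-0.36, edgeR adjusted p = 0.0122).

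Sox8, a SOXE factor with a part in gliogenesis and gonad development (Entrez 20681, chromosome 17, 25565893 to 25570686), rose with differentiation in null cells. It stood at 275, 189, 196 and 176 CPM in intact and 177, 221, 224 and 151 CPM in null proliferating libraries. It stood at 142, 334, 285 and 423 CPM in intact and 430, 407, 291 and 320 CPM in null differentiating libraries. The genotypes overlapped in both conditions, and the log2 differences were -0.11 (edgeR adjusted p = 0.77) and 0.29 (edgeR adjusted p = 0.38). The null response was 0.90 ± 0.26 (SE, edgeR adjusted p = 0.0059). The intact response was 0.50 (edgeR adjusted p = 0.09) with all libraries, 0.74 without intact differentiating replicate 1 (edgeR adjusted p = 0.00299) and 0.66 without intact proliferating replicate 1 (edgeR adjusted p = 0.0404). DESeq2 also called it with all libraries (0.55, DESeq2 adjusted p = 0.0419). The genotypes' responses did not differ past the threshold (0.40, edgeR adjusted p = 0.45).

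Sox9, the SOXE factor of the switch from neuron to glia production in neural stem cells (Entrez 20682, chromosome 11, 112782210 to 112787757), was lower in null cells while they proliferated and higher while they differentiated. It stood at 244, 212, 216 and 195 CPM in intact and 134, 165, 172 and 116 CPM in null proliferating libraries. It stood at 157, 239, 225 and 259 CPM in intact and 385, 403, 346 and 340 CPM in null differentiating libraries. The genotypes did not overlap in either condition, in opposite directions. The log2 difference was -0.56 ± 0.15 in proliferating (SE, edgeR adjusted p = 0.0068) and 0.74 ± 0.15 in differentiating cells (SE, edgeR adjusted p = 0.00071). The intact response was 0.02 (edgeR adjusted p = 0.89) and the null response 1.33 ± 0.15 (SE, edgeR adjusted p = 1.3e-06), and their difference was 1.31 ± 0.21 (SE, edgeR adjusted p = 0.00057). Without intact differentiating replicate 1, the lowest of its group, the differentiating difference was 0.61 (edgeR adjusted p = 0.000976) and that of the responses 1.17 (edgeR adjusted p = 0.000215). Sox10, the SOXE gene of the oligodendrocyte lineage, was lower in null cells in both conditions. It stood at 107, 31.3, 31.4 and 18.2 CPM in intact and 2.10 to 2.66 CPM in null proliferating libraries, without overlap, and replicate 1 was far above the other intact ones. It stood at 230, 462, 524 and 589 CPM in intact and 40.3, 44.0, 83.6 and 83.0 CPM in null differentiating libraries. The log2 differences were -4.26 ± 0.55 (SE, edgeR adjusted p = 3e-05), or -3.46 ± 0.38 without intact proliferating replicate 1 (edgeR adjusted p = 1.15e-05), and -2.85 ± 0.47 (edgeR adjusted p = 0.00016).

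**Figure D2:**
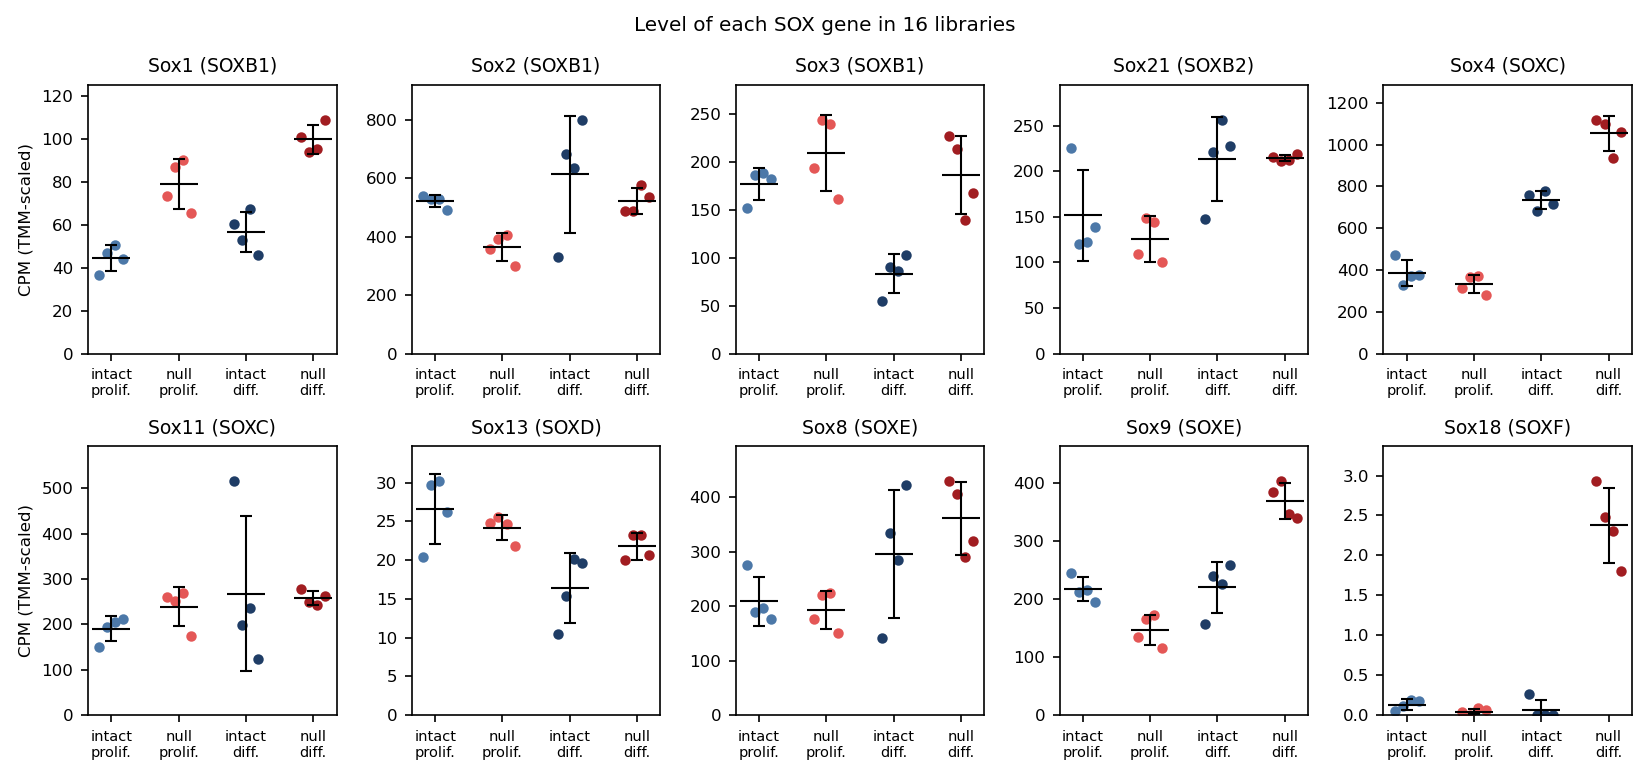
Level of each of the 10 SOX genes in the 16 libraries, in TMM-scaled CPM on linear axes from 0 that differ between panels, with 1 point per library, a long bar at the group mean and whiskers of 1 SD (n = 4). Sox1 is higher in null cells in both conditions, Sox9 is below intact while proliferating and above it while differentiating, and Sox18 is above 1 CPM in null differentiating libraries alone.

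Sox18, a SOXF factor of endothelial and lymphatic vessel development (Entrez 20672, chromosome 2, 181669837 to 181671640), had few counts except in null differentiating cells. It had 84, 81, 108 and 62 counts in replicates 1 to 4 there (2.93, 2.48, 2.30 and 1.80 CPM). It had 9, 0, 0 and 0 counts in intact differentiating, 1, 2, 4 and 4 in intact proliferating and 1, 0, 2 and 2 counts in null proliferating libraries. Every null differentiating library lay above every other library. Summed over libraries, the level in null differentiating cells was 31.5 times that in intact differentiating cells (95% exact binomial interval 16.4 to 69.6) and 48.9 times that in null proliferating cells (20.7 to 152), where intervals cover counting error only. Since all 9 counts of intact differentiating cells came from replicate 1, the level in null cells was at least 67.3-fold higher without that library, against a floor of 3 counts over the remaining 3 libraries. The edgeR adjusted p was 4.6e-05 between genotypes in differentiating cells, 1.3e-05 for the null response and 0.0026 for the difference of the responses. Sox18 passed the count filter through the null differentiating group alone, so these p-values depend in part on that high level. In intact cells the ratio of differentiating to proliferating cells was 0.562 (0.206 to 1.49), not called (edgeR adjusted p = 0.42) unless replicate 1 was left out (edgeR adjusted p = 0.000834). In proliferating cells the ratio of null to intact was 0.362 (0.0987 to 1.13, edgeR adjusted p = 0.29). This difference was called under 1 alternative, without both intact replicate 1 libraries (edgeR adjusted p = 0.0465).

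The 12 endothelial markers looked at beside Sox18 summed to 5.62 to 7.25 CPM in intact proliferating, 4.50 to 6.52 in null proliferating, 5.12 to 7.01 in intact differentiating and 2.57 to 3.56 CPM in null differentiating libraries. Of the 7 that passed the filter on low counts, 0 were higher and 1 was lower in null differentiating cells by edgeR, where 24.3% of the tested genes were higher and 22.0% lower. The 1 lower was Kdr, the VEGF receptor gene, at 3.28 ± 0.975 CPM in intact and 0.327 ± 0.0807 CPM in null cells (SD, n = 4). Kdr makes up most of the gap between the sums of the differentiating groups. Vwf, the von Willebrand factor gene, averaged 0.691 ± 0.326 CPM in intact and 1.22 ± 0.219 CPM in null differentiating cells, a log2 difference of 0.82 ± 0.40 (SE, edgeR adjusted p = 0.11) that was called without intact differentiating replicate 4 (1.11, edgeR adjusted p = 0.0473). The defining genes Cdh5, Tie1 and Erg were near 0 in all groups. Over the 4 libraries of intact proliferating, null proliferating, intact differentiating and null differentiating cells, Cdh5 had 4, 0, 1 and 0 counts, Tie1 had 1, 0, 0 and 0, and Erg had 6, 2, 7 and 0. Of the other SOXF genes, Sox17 averaged 0.0198 ± 0.0273 CPM there, and Sox7 stood at 0.0684 ± 0.0641 CPM in intact and 0.0900 ± 0.0485 CPM in null differentiating cells, a log2 difference of 0.42 ± 0.91 (SE, edgeR adjusted p = 0.72).

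**Figure D3:**
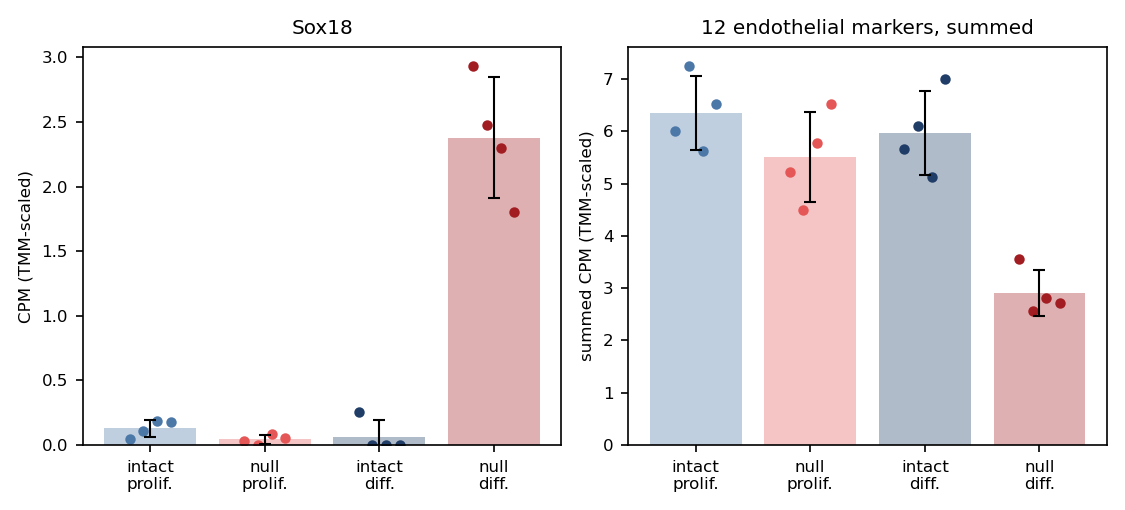
Sox18 (left) and the sum of 12 endothelial markers (right) in TMM-scaled CPM on linear axes from 0, with 1 point per library, bars at the group mean and whiskers of 1 SD (n = 4). Sox18 is at 1.80 to 2.93 CPM in the null differentiating libraries, where the endothelial sum is 2.57 to 3.56 CPM.

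Read by comparison, loss of KAT7 in proliferating cells went with higher Sox1 and lower Sox2 and Sox9. That was 1 gene called higher and 2 called lower of 10, where 38.6% of the tested genes were called in either direction, 19.0% higher and 19.7% lower, and the same 3 were those whose groups did not overlap (39.0% of the tested genes). The call of Sox2 was lost with 10 of the 16 libraries left out in turn. The median log2 difference of the 10 genes was -0.17, against -0.01 over all tested genes. In differentiating cells 5 of 10 were called higher in null cells (Sox1, Sox3, Sox4, Sox9 and Sox18), 1 from each of SOXC, SOXE and SOXF and a pair from SOXB1, and 0 lower. The background there was 46.4% called, 24.3% higher and 22.0% lower, and the same 5 genes did not overlap (45.3% of the tested genes). The median was 0.46 against 0.04. Without Sox18, which had to be high in null differentiating cells to be tested, 4 of 9 were called higher. Called shares of 3 and 5 of 10 are near those of the background and are no result about these genes as a group.

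Intact cells that differentiated had 3 genes called higher (Sox1, Sox21 and Sox4) and 2 lower (Sox3 and Sox13) of 10, against 72.0% of the tested genes called, 36.7% higher and 35.3% lower. Without overlap were 1 higher (Sox4) and 2 lower (Sox3 and Sox13), against 62.9% of the tested genes. With the 2 intact groups fitted alone, Sox1 (edgeR adjusted p = 0.0513) and Sox21 (edgeR adjusted p = 0.0939) missed the threshold, which left Sox4 alone called higher. Null cells that differentiated had 7 called higher (Sox1, Sox2, Sox21, Sox4, Sox8, Sox9 and Sox18) and 0 lower, against 69.0% called, 34.6% higher and 34.4% lower. The same 7 did not overlap, against 67.0% of the tested genes, so both shares are near those of the background. The call of Sox1 was lost with 4 of the 16 libraries left out in turn and that of Sox2 with 2. Without Sox18, 6 of 9 were called. The difference of the responses was called for 4 of 10 genes (Sox3, Sox4, Sox9 and Sox18), each with the higher response in null cells. Of the tested genes, 22.7% were called, 12.7% higher and 9.93% lower. Without Sox18, 3 of 9 SOX genes were called. The median difference of the 10, Sox18 included, was 0.48, against 0.04 over all tested genes. The 10 genes were chosen with earlier results of these data known. Their shares and medians beside those of all tested genes are therefore no result about them as a group.

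**Figure D4:**
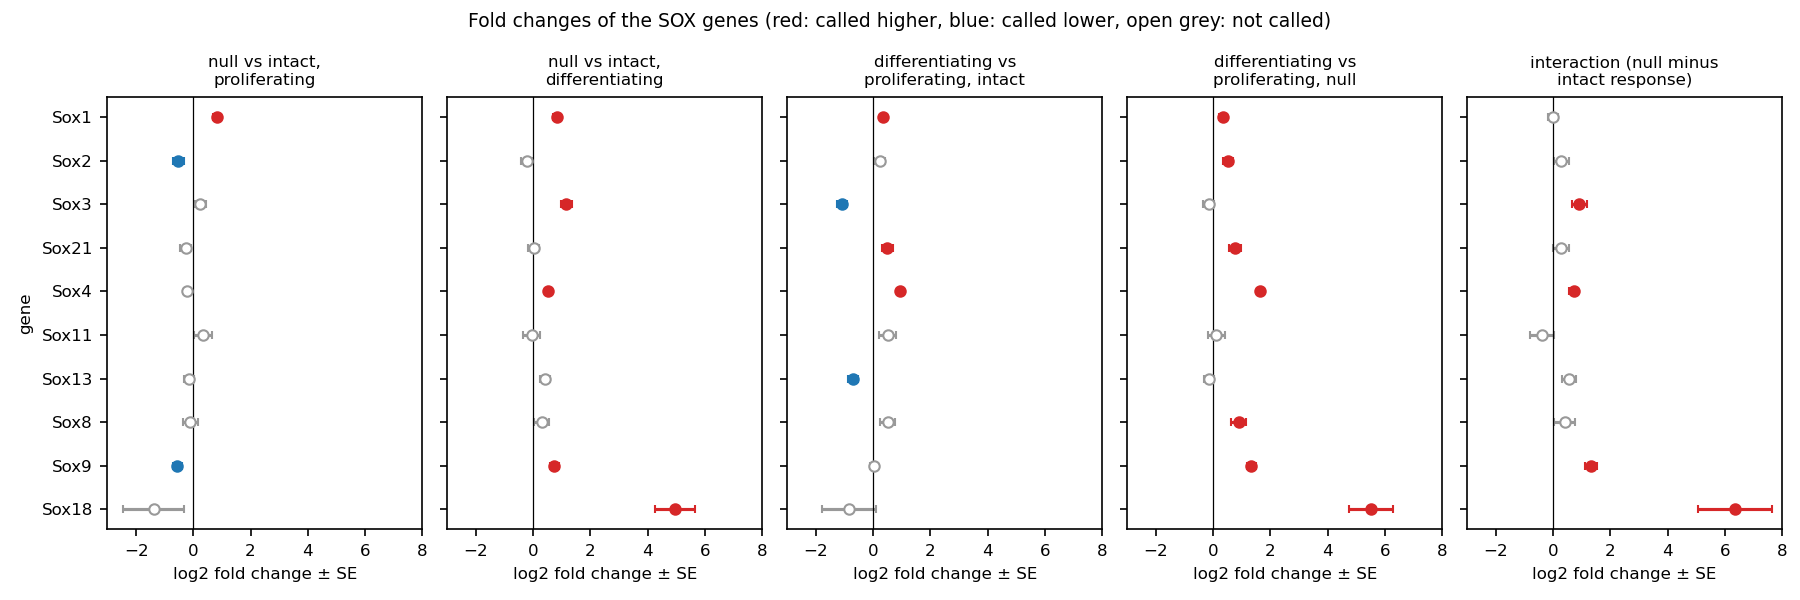
Log2 fold change of the 10 SOX genes in the 5 comparisons, with whiskers of 1 SE from edgeR; filled red points were called higher, filled blue points called lower and open grey points not called. In the difference of the responses, Sox3, Sox4, Sox9 and Sox18 are called, at 0.92, 0.72, 1.31 and 6.35. Sox18 passed the count filter through the null differentiating group alone. Its value rests on libraries without counts and is no measure of size.

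Of the 9 other SOX genes in the count tables, 5 passed the filter (Sox5, Sox6, Sox7, Sox10 and Sox12). In null proliferating cells 4 of these were lower (all but Sox7) and 0 higher, where 19.7% of the tested genes were lower and 19.0% higher. Without intact proliferating replicate 1, 3 were lower and 1, Sox7, was higher (edgeR adjusted p = 0.0215). In null differentiating cells 2 were lower (Sox10 and Sox12) and 0 higher by edgeR, against 22.0% and 24.3% of the tested genes, and 3 were lower without intact differentiating replicate 1. Sox14, Sox15, Sox17 and Sox30 did not pass the filter.

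Of 8 genes for factors that act with SOX proteins on shared enhancers, 0 were higher and 2 lower in null proliferating cells, and 5 were higher and 1 lower in null differentiating cells. Shares of all tested genes, against which this and the following lists stand, were 19.0% higher and 19.7% lower in the first comparison, and 24.3% and 22.0% in the second. The lists are short, were chosen with results of these data known, and share genes. Nfia stands in the partner and SOX9 lists, Pax6 in the partner and stem cell lists, and Nes, Hes5, Notch1 and Egfr in the SOXB1 and stem cell lists. Tubb3, Dcx and Map2 stand in the SOXC and neuron lists, and Slc1a3 in the stem cell and astrocyte lists. Sox10 is also an oligodendrocyte marker. Nfia, a glial partner of SOX9, stood at 73.9 ± 8.86 CPM in intact and 170 ± 24.4 CPM in null differentiating cells (SD, n = 4), a log2 difference of 1.20 ± 0.12 (SE, edgeR adjusted p = 3.1e-06). Chd7, a chromatin remodeller that binds SOX2, stood at 183 ± 34.9 and 357 ± 24.5 CPM, a difference of 0.96 ± 0.13 (SE, edgeR adjusted p = 4.2e-05). Pou3f4, a POU factor of the kind that pairs with SOXB1 proteins, went from lower in null proliferating cells (-0.75 ± 0.13, edgeR adjusted p = 0.00043) to higher in null differentiating cells (0.71 ± 0.13, edgeR adjusted p = 0.00047), and its responses differed by 1.46 ± 0.19 (SE, edgeR adjusted p = 0.00014). Pou3f1, another POU factor, was the 1 lower, at 29.5, 6.81, 8.11 and 3.83 CPM in intact and 0.766 to 2.06 CPM in null differentiating libraries, without overlap. The log2 difference was -3.34 ± 0.59 (SE, edgeR adjusted p = 0.00033), and -2.39 ± 0.42 without intact differentiating replicate 1, the library at 29.5 CPM (edgeR adjusted p = 0.000341).

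Of 10 genes described as targets of SOXB1 proteins, 4 were higher and 0 lower in null proliferating cells (Nes, Gli2, Jag1 and Egfr), and 5 were higher and 0 lower in null differentiating cells (the same 4 and Notch1). The call of Egfr in proliferating cells (0.32 ± 0.12, edgeR adjusted p = 0.043) was lost with 11 of the 16 libraries left out in turn (edgeR adjusted p = 0.0506 to 0.108). Without intact proliferating replicate 1, Notch1 was called there in its place (0.47, edgeR adjusted p = 0.0231). Jag1, a Notch ligand gene, stood at 54.8 ± 5.17 CPM in intact and 110 ± 14.2 CPM in null proliferating cells, a log2 difference of 1 ± 0.12 (SE, edgeR adjusted p = 1.9e-05). Gli2, a transcription factor of the Hedgehog pathway, stood at 8.31 ± 1.78 and 26.8 ± 6.53 CPM, a difference of 1.69 ± 0.20 (SE, edgeR adjusted p = 1.6e-05). Egfr, the receptor gene for a mitogen of neurosphere culture, had the greatest difference of the list in differentiating cells, 61.6 ± 12.8 CPM in intact and 330 ± 14.2 CPM in null cells, or 2.42 ± 0.12 (SE, edgeR adjusted p = 7.1e-09). The list's median was 0.32 in proliferating cells and 0.42 in differentiating cells, against -0.01 and 0.04 over all tested genes.

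Of 5 genes described as SOXC targets, 0 were higher and 3 lower in null proliferating cells, and 2 were higher and 1 lower in null differentiating cells. Dcx, a microtubule gene of migrating neurons, stood at 35.6, 9.31, 9.21 and 5.31 CPM in intact and 0 to 1.90 CPM in null proliferating libraries, without overlap. The log2 difference was -4.11 ± 0.79 (SE, edgeR adjusted p = 0.00087), -3.19 without intact proliferating replicate 1 (edgeR adjusted p = 0.00239) and -5.21 without null proliferating replicate 4 (edgeR adjusted p = 0.0011). In differentiating cells Dcx was called lower without intact proliferating replicate 1, which made 2 of 5 lower, or without intact differentiating replicate 4. Neurod1, a neuronal bHLH factor, was lower in null cells in both conditions, by -2.30 ± 0.64 (SE, edgeR adjusted p = 0.01) and -1.84 ± 0.50 (edgeR adjusted p = 0.0074). Tead2, a factor of the Hippo pathway, was lower in proliferating (-0.47 ± 0.16, edgeR adjusted p = 0.032) and higher in differentiating null cells (0.55 ± 0.16, edgeR adjusted p = 0.012). The first call was lost without null proliferating replicate 1 or 4 or intact proliferating replicate 2, 3 or 4 (edgeR adjusted p = 0.0562 to 0.101). Tubb3, a neuronal tubulin gene, was not called in either, with log2 differences of -0.90 (edgeR adjusted p = 0.19) and -0.74 (edgeR adjusted p = 0.23).

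Of 9 genes described as SOX9 targets, 0 were higher and 3 lower in null proliferating cells, and 3 were higher and 3 lower in null differentiating cells. The difference of the responses was called for 6 of 9, each with the higher response in null cells, against 12.7% of the tested genes. The list median was 1.66, against 0.04 over all tested genes. A higher response is not a higher level. Acan and Col9a1 started near 0 in null proliferating cells and were lower in null than in intact cells in both conditions. Without intact proliferating replicate 1, 4 were higher and 1 lower in the difference of the responses, and 5 were higher in null differentiating cells. Apcdd1, a Wnt inhibitor gene of glial precursors, stood at 75.4, 14.9, 16.4 and 16.4 CPM in intact and 6.97 to 8.98 CPM in null proliferating libraries, without overlap. It stood at 32.2, 73.3, 65.0 and 85.3 CPM in intact and 81.1, 72.8, 129 and 136 CPM in null differentiating libraries, which overlapped. Its responses differed by 2.70 ± 0.66 (SE, edgeR adjusted p = 0.0094), and by 1.76 ± 0.39 without intact proliferating replicate 1 (edgeR adjusted p = 0.00476). Col2a1, a cartilage collagen gene under SOX9, was higher in null differentiating cells, at 8.26 ± 5.01 CPM in intact and 23.1 ± 9.41 CPM in null cells, by 1.48 ± 0.46 (SE, edgeR adjusted p = 0.016), a call lost without null differentiating replicate 4 (1.24, edgeR adjusted p = 0.0558). Acan, the aggrecan gene, was lower in null cells in both conditions (-4.62 ± 0.54, edgeR adjusted p = 1e-05, and -1.73 ± 0.40, edgeR adjusted p = 0.0021), as was the collagen gene Col9a1 (-4.56 ± 0.63, edgeR adjusted p = 5.2e-05, and -2.28 ± 0.39, edgeR adjusted p = 0.00023). Both were near 0 in null proliferating cells. Acan had 4 counts over these libraries against 89 in intact ones, and 30 against 88 in differentiating cells. Col9a1 had 13 against 251 counts in proliferating cells. Without intact proliferating replicate 1 the first value of Col9a1 was -3.86 (edgeR adjusted p = 3.9e-05).

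Markers of cell types also differed between the genotypes. Of 10 neural stem and radial glia markers, 9 were higher and 0 lower in null differentiating cells, where their sum was 5310 to 6820 CPM against 3160 to 3950 CPM in intact cells. In proliferating cells 3 were higher and 0 lower, with sums of 8180 to 8550 CPM in null and 7620 to 8110 CPM in intact cells, and 1 was higher with library size scaling. Astrocyte markers were higher for 7 of 10 in null differentiating cells (0 lower), with a sum of 5650 to 9020 CPM against 1960 to 3080 CPM. In null proliferating cells 4 of them were higher and 0 lower, at 2560 to 3840 against 1320 to 2040 CPM, and 7 were higher without intact proliferating replicate 1. Oligodendrocyte lineage markers were lower for 9 of 12 in both conditions (0 higher). Their sum was 2260 to 2730 CPM in null and 4310 to 8660 CPM in intact differentiating cells, and 1850 to 2360 against 3110 to 3520 CPM in proliferating cells. In null proliferating cells 7 were lower without intact proliferating replicate 1 and 11 without intact differentiating replicate 1. Neuron markers were higher for 1 and lower for 5 of 10 in null differentiating cells, with sums of 2360 to 2790 and 2220 to 6050 CPM that overlapped. Cycling cell markers were higher for 5 and lower for 1 of 8 in null differentiating cells, at 365 to 427 against 176 to 275 CPM. In null proliferating cells 3 were lower and 0 higher, at 1830 to 2170 against 2350 to 2720 CPM, with 5 lower without intact differentiating replicate 1 and 7 lower with library size scaling. The part of these cell types in the levels of the SOX genes was not tested. Each count of 0 given here for a group of genes, the 10 SOX genes included, was also 0 with edgeR at an unadjusted p under 0.05 and with DESeq2.

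Genes whose profile over the 16 libraries was closest to that of each SOX gene were ranked by the root mean square difference of centred log2 CPM among 12337 genes. The nearest to Sox9 was Mad2l2 (0.141), the nearest to Sox21 was Vps37b (0.140), and Sox13 was closest to Nck1 (0.144). Sox2 was closest to Gng12 (0.157), Sox4 to Cfp (0.163), Sox1 to Tsc22d3 (0.175) and Sox8 to Lima1 (0.196). Sox3 was closest to Cdc42se1 (0.220), with Ets1 at 0.221, and Sox11 to Daam1 (0.220). The nearest to Sox18 was Htr3a at 0.883, where the SD of Sox18 itself over the libraries was 1.95, so distances are not comparable between genes of unequal spread.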

How the data were processed

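Gene expression was measured by RNA sequencing with 75-base paired-end reads in 16 libraries. Each library has a deposited file of whole-number, unnormalized counts for every gene. Gene model lengths stand beside them, per the file headers. Per the submitters' processing notes, the authors used bcl2fastq, featureCounts and the build mm10; their versions, the aligner, the annotation and the strand setting were not given in the sources used here. The series' joint table repeats these counts and was left aside. Of 27179 identifiers, 25275 were matched to symbols with the RefSeq table of GRCm38.

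The model was fitted by edgeR 4.0.16 in R 4.3.3: filterByExpr (minimum count of 10, 15177 genes kept), TMM scaling and quasi-likelihood tests over all 16 libraries, with a mean for each group and no covariate, with 12 residual degrees of freedom. Calls used a Benjamini-Hochberg adjusted p under 0.05. The SE is the unshrunk log2 fold change over the square root of F. Levels per kilobase divide CPM by the length of the gene model. Log2 CPM used a prior count of 2. The fitting script was tested on simulated data. Alternatives were DESeq2 1.42.0, library size scaling, other count filters, fits of the compared groups alone, replicate blocks and leaving out libraries.

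The 10 genes and the gene lists were chosen with earlier results of these data known. Named were Kat7, all SOX genes in the tables, for each other list at most 4 called genes, taken by adjusted p, or members given as a check on the list, and the closest genes by profile among those with at least 2 CPM in some group. Which of these are printed was decided after their values were seen.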

Additional observations from a re-analysis of the deposited data

Results flagged for a closer look

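In 3 of 52 groups of 4 libraries, 1 library lay far from the other 3 by Dixon's test at 95%, which sets the gap to the nearest library against the range of the group. Chance gives this in about 1 in 20 groups. Sox3 stood at 152 CPM in intact proliferating replicate 1, against 182 to 188 CPM in the others. Sox18 stood at 0.257 CPM in intact differentiating replicate 1, against 0 in the others. The SOXB1 sum stood at 333 CPM per kilobase in null differentiating replicate 1, against 325 to 326 in the others.

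The response to differentiation differed between the genotypes by edgeR's interaction test for Sox3 (log2 difference of null minus intact response 0.92), Sox4 (0.72), Sox9 (1.31) and Sox18 (6.35). The value of Sox18 rests on libraries without counts and is no measure of size.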

How the results depend on the processing

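The 50 values (10 genes in 5 comparisons) were recomputed under each alternative, which gave 1163 values. Of these, 1112 kept their call or stayed uncalled, 32 lost a call, 18 gained one and 1 changed sign with a call: without both intact replicate 1 libraries, Sox11 was higher in null differentiating cells (0.48, edgeR adjusted p = 0.0394, against -0.05), and the cause was not tested. Values that stayed uncalled count among the 1112 also where their sign changed, as for Sox8 between proliferating genotypes (-0.11, and up to 0.05). Between genotypes, the calls of Sox1 and Sox9 in both conditions and of Sox3, Sox4 and Sox18 in differentiating cells held under every alternative that gave a value. That of Sox18 is not support of the same kind, since Sox18 passed the main filter through the null differentiating group alone. It had a value under 22 alternatives, against 23 for the others. SOX genes called lower in null proliferating cells numbered 2, and 1 to 2 with libraries left out in turn. In null differentiating cells 0 were called lower, 0 to 1 with libraries left out in turn, and 1 (Sox2) without both intact replicate 1 libraries. In intact cells 3 were called higher with differentiation, 1 to 4 with libraries left out in turn, and 1 with only the compared groups fitted, where fewer libraries set the spread. With library size scaling, 63.3% of all calls between proliferating genotypes were lower against 50.9% with TMM, and 60.6% against 47.5% in differentiating cells. The calls of the 10 genes numbered the same with both scalings in all 5 comparisons. Whether equal replicate numbers pair the libraries was not settled: correlations of their deviations were 0.126, 0.123, -0.231 and 0.117 in intact and -0.0284 to 0.0331 in null cells, not all over 0.1. With the replicate number as a block, calls between proliferating genotypes numbered 2753 higher and 2887 lower, against 2879 and 2985. For the other genes named, leaving out each library and the counts without either intact replicate 1 were added after seeing the data. At the lowest depth, 16.8 M counts, Sox18 had 0 counts.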
